A study of Mus musculus with 8 samples.

Results

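The genes described here are 10 genes of fatty acid synthesis, elongation and desaturation, Acly, Acaca, Fasn, Elovl6, Scd1, Scd2, Fads2, Elovl5, Fads1 and Srebf1, out of 27179 genes counted in the cerebral cortex of mouse embryos. They were taken by symbol, as the pathway around Scd1, and Scd1 was selected on its log2 fold change, among the most negative between Taf8-deleted and Taf8-intact cortex. The set was thus chosen by this contrast, and the contrast's values for these 10 genes are given as a description, without a test. All 10 passed the filter on low counts, among 16074 genes tested.

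Cytosolic fatty acid synthesis starts with citrate, from which ATP citrate lyase (Acly) makes acetyl-CoA. Acetyl-CoA carboxylase (Acaca) turns this into malonyl-CoA, fatty acid synthase (Fasn) builds palmitate, Elovl6 lengthens it to stearate, and the stearoyl-CoA desaturases (Scd1, Scd2 and relatives) put in the double bond that makes oleate. Fads2, Elovl5 and Fads1 desaturate and lengthen dietary polyunsaturated fatty acids, and Srebf1 encodes SREBP-1, a membrane-bound transcription factor that activates genes of this pathway once it is cleaved. In the mouse, Scd1 is best known from liver and fat, whereas Scd2 is the main desaturase of the brain and is used for membrane and myelin lipids.

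The study sequenced polyadenylated RNA of 8 embryos, 1 library each: 4 with the Taf8 status Taf8 +/+, called intact, and 4 with the status Taf8 -/lox, called deleted. The Taf8 protein belongs to TFIID, which binds core promoters for RNA polymerase II. The deleted embryos carry a null and a loxP allele, so that allele status differs together with the group. A recombinase, if it was not present in both groups, would do so too. The labels used here give neither stage nor recombinase, and do not say whether the part of an animal number before the point marks a litter. That part is shared by intact libraries 1, 2 and 3 and differs among all other embryos, with none in common to both groups, so that anything it marks cannot be told apart from the group, and the spread of the intact libraries may be that of related embryos. Libraries are numbered 1 to 4 within each group, as labelled, and levels are counts scaled to library size (CPM, on TMM-scaled totals), given as mean ± SD.

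Libraries held 39590959 to 44788200 counts, and no pair of libraries in a group agreed within sampling noise. Taf8 itself had 1491, 1383, 1222 and 1403 counts in the intact and 30, 14, 29 and 14 in the deleted libraries. The cortex genes Lhx2 and Tbr1 stood at 360 ± 22 and 388 ± 9.87 CPM in intact cortex, and at 413 ± 26.4 and 295 ± 15.3 CPM in deleted cortex. On the first principal component, library 4 of each group lay nearest to the other group. A total of 63.5% of the genes tested were called between the groups at an adjusted p under 0.05 by edgeR's quasi-likelihood test.

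Scd1 and Scd2 lie on chromosome 19 in a cluster with Scd3 and Scd4, and how far a read can tell them apart bears on every Scd value. In the GENCODE coding sequences, Scd1 was identical to Scd2 at 90.3%, to Scd3 at 91.5% and to Scd4 at 84.6% of aligned bases. A coding stretch in which all 4 genes are nearly alike is shown first, for Scd1 and Scd2 (GRCm38, coding strand; Scd1 chr19:44401776-44401865, minus strand; Scd2 chr19:44299642-44299731, plus strand; the capital marks the base at which Scd2 differs). It is the stretch of 90 bases within 1 coding exon that has the most bases in common to the 4 genes, 89, and Scd3 and Scd4 have the Scd1 letters there.
Scd1 shared stretch: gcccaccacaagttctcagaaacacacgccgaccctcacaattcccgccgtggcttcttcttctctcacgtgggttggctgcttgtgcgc
Scd2 shared stretch: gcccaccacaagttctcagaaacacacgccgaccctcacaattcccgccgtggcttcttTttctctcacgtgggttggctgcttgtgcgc
A stretch near the start of the coding sequence is shown because it separates the same genes at 30 of 90 bases (Scd1 chr19:44406621-44406710, minus strand; Scd2 chr19:44294963-44295052, plus strand; capitals mark every base that differs).
Scd1 distinct stretch: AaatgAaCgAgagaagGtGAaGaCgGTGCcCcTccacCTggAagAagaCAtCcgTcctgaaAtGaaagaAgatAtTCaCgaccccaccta
Scd2 distinct stretch: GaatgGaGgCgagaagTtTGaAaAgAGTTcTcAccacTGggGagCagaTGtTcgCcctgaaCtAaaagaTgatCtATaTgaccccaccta
Over the whole transcripts, 48 of the 4733 stretches of 100 bases in Scd1, the read length, also occur in Scd2 (1.01%), and 86 occur in Scd3 (1.82%).

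Promoters of 7 of the 10 genes were found among the RefSeq windows of GRCm38.p6, as 9 windows of 250 bases before an annotated start. Scd1, Scd2 and Fads1 had no window, so the motif counts below do not cover them. Srebf1 had more than 1 window. The Acaca window (chr11:84195188-84195437) lies inside the gene span, which starts at 84129635. They are shown for Acly, the gene that was higher in deleted cortex, and for Fasn and Elovl6, as examples of lower genes with and without a match. Capitals mark matches, on either strand, to the CCAAT box (CCAAT) or the GC box (GGGCGG), and the windows run 5′ to 3′ towards the start (Fasn chr11:120824548-120824797, minus strand; Acly chr11:100528001-100528250, minus strand; Elovl6 chr3:129532136-129532385, plus strand).
Fasn: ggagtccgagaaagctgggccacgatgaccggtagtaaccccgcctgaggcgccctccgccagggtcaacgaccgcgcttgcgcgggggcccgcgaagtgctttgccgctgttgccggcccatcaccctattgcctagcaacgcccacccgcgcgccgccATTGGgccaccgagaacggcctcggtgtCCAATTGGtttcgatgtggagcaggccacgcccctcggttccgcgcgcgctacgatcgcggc
Acly: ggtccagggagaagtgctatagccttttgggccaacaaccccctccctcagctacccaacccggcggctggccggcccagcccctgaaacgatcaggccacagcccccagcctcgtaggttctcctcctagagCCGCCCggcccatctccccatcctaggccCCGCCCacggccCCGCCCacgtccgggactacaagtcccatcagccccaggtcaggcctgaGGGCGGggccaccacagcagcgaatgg
Elovl6: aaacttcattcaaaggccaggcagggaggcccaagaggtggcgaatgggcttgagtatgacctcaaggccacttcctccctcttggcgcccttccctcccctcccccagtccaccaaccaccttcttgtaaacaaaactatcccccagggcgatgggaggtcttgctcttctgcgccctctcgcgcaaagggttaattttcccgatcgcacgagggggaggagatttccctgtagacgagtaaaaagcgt
Of the windows not shown, that of Elovl5 holds CCAAT boxes and an E-box, that of Fads2 a GC box, and that of Acaca none of the motifs searched. A Srebf1 window holds CCAAT and GC boxes, another a CCAAT box only, and another GC boxes only. The Fasn window holds 3 CCAAT boxes, of which a pair overlaps head to head, the Acly window holds 4 GC boxes, and the Elovl6 window holds none of the motifs searched. CCAAT was found in 4 of the 9 windows and in 33.8% of all 32851 windows of the table, and GGGCGG in 4 of 9 and in 32.7%. The TATA box (TATAAA) was in 0 of 9 windows and in 12.4% of all, and the inner part of the sterol regulatory element (CACCCCA) in 0 of 9 and in 6.68%. The E-box (CACGTG) was in 1 of 9, that of Elovl5, and in 6.02% of all. The Fasn and Acly windows were 69.2% and 68.8% G and C, the Elovl6 window 56.4%, and the median of all windows 52.4%.

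Of the 10 genes, 9 were lower and 1, Acly, was higher in deleted cortex, and in none of them did the libraries of the groups overlap. Among all genes tested, 32.9% were called lower and 30.6% higher, and 30.1% were lower and 27.6% higher without overlap, 57.7% in either direction. As the contrast chose the set, nothing is read from these counts. The median log2 fold change was -0.41 over the 10 genes and 0.0 over all genes tested. Summed over the 10 genes, the level was 3653 to 3921 CPM in the intact and 2777 to 2878 CPM in the deleted libraries. The directions held under all 17 alternative settings tried. In tissue RNA such as this, fewer cells of a type and less RNA per cell cannot be told apart.

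**Figure D1:**
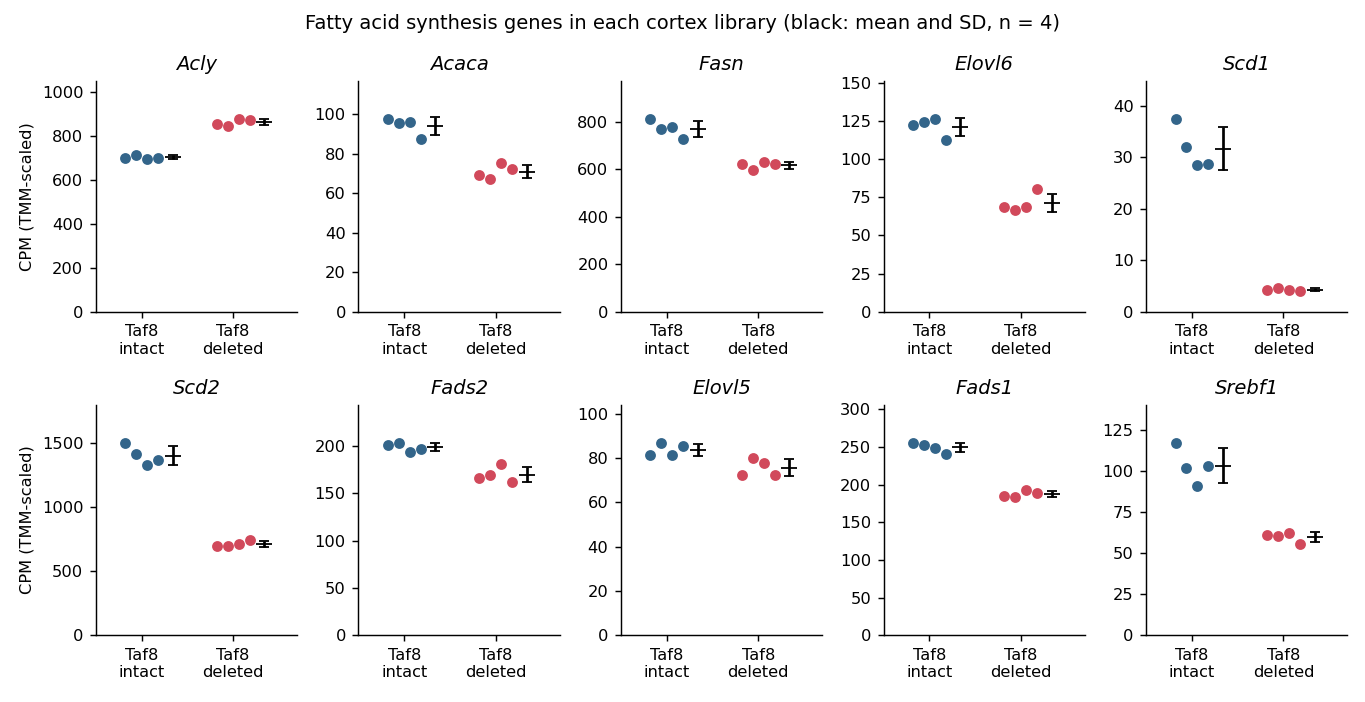
Level of each of the 10 genes in CPM, in 1 panel per gene with a linear axis from 0, with 1 point per library, and the mean and SD of each group of 4 in black. Scd1 shows the widest gap as a ratio, from 28.4 to 37.3 CPM in intact down to 4.11 to 4.70 CPM in deleted libraries, and Acly alone lies higher in the deleted libraries.

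Scd1 (gene ID 20249, chr19:44394450-44407709) encodes a desaturase of the endoplasmic reticulum that makes oleate and palmitoleate. It was counted 1605, 1360, 1168 and 1212 times in the intact libraries and 191, 207, 187 and 165 times in the deleted libraries. These are 37.3, 32.0, 28.4 and 28.7 CPM in the intact and 4.18, 4.70, 4.22 and 4.11 CPM in the deleted libraries. Every deleted library lay far below every intact library, and among the intact ones library 1 was highest. Intact cortex averaged 31.6 ± 4.12 CPM and deleted cortex 4.30 ± 0.265 CPM (n = 4 embryos per group), or 7.35-fold less, with a log2 fold change of -2.88 ± 0.10 (SE). Ranked from the most negative log2 fold change, it was number 7 of the 16074 genes.

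Scd2 (gene ID 20250, chr19:44293676-44306864), the main brain desaturase, had 64454, 60010, 54535 and 57715 counts in the intact and 31926, 30841, 31484 and 29889 in the deleted libraries. Its level was 1498, 1414, 1327 and 1368 CPM in the intact and 699, 700, 711 and 745 CPM in the deleted libraries. As for Scd1, intact library 1 was highest, but the groups differed less as a ratio than for Scd1. Intact cortex averaged 1402 ± 73.3 CPM and deleted cortex 714 ± 21.6 CPM, 1.96-fold lower (log2 fold change -0.97 ± 0.04). In CPM per kb of transcript, Scd2 stood above Scd1 by 39.6 times (35.6 to 42.2) in intact and by 148 times (132 to 161) in deleted libraries.

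Summed per kb, the level of all 4 Scd genes was 264 ± 14.1 CPM per kb in intact and 133 ± 3.85 CPM per kb in deleted cortex. Scd1 made up 2.47% ± 0.189 of this sum in intact and 0.672% ± 0.0539 in deleted cortex, and Scd2 made up 97.3% and 98.8%. If Scd2 reads fell evenly along its transcript, 489 to 578 counts per intact library and 268 to 286 per deleted library would lie in the stretches it shares with Scd1, beside 1168 to 1605 and 165 to 207 counts given to Scd1. The sources used here do not say how the counting treated reads that fit both genes, and their part in the Scd1 values was not tested. Scd4, a minor relative, fell from 1.01 ± 0.190 to 0.392 ± 0.0320 CPM (log2 fold change -1.36 ± 0.21, adjusted p = 0.00011, edgeR). Scd3 had 1.35 ± 0.643 and 2.20 ± 0.509 CPM, a log2 fold change of 0.71 ± 0.31 that missed the threshold (adjusted p = 0.0724) and overlaps Pkd2l1. The Scd1 stretches shared with Scd3 and Scd4 apply to these values too.

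Srebf1 (gene ID 20787, chr11:60199084-60224186), the regulator of the pathway, stood at 117, 102, 91.0 and 104 CPM in the intact and 61.5, 60.9, 62.7 and 55.6 CPM in the deleted libraries. Intact library 1 was again the highest, and deleted library 4 the lowest. The intact mean was 104 ± 10.7 CPM and the deleted mean 60.2 ± 3.13 CPM (log2 fold change -0.78 ± 0.07). Scd1 and Srebf1 were the most variable of the 10 genes within intact cortex, with coefficients of variation of 13.0% and 10.4%, and Acly was the least variable.

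Acly (gene ID 104112, chr11:100476352-100528000), which supplies acetyl-CoA, was the exception in direction. It had 701, 714, 695 and 702 CPM in the intact and 854, 847, 875 and 871 CPM in the deleted libraries. All deleted libraries lay above all intact ones, and replicates were close together in both groups. The intact mean was 703 ± 8.08 CPM and the deleted mean 862 ± 13.4 CPM (log2 fold change 0.29 ± 0.03). The enzymes that use its product stood lower.

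Acaca (gene ID 107476, chr11:84129635-84401651), which makes malonyl-CoA, stood at 97.3, 95.5, 95.9 and 87.6 CPM in the intact and 69.4, 67.1, 75.1 and 72.1 CPM in the deleted libraries, a log2 fold change of -0.41 ± 0.04. Fasn (gene ID 14104, chr11:120805958-120825166), the synthase that builds palmitate, had 811, 772, 778 and 728 CPM in the intact and 624, 597, 630 and 621 CPM in the deleted libraries, a log2 fold change of -0.32 ± 0.04. In both genes intact library 1 was the highest and intact library 4 the lowest of its group, still above every deleted library. Elovl6 (gene ID 170439, chr3:129532386-129638495), which makes the stearate that Scd enzymes use, had 122, 124, 126 and 113 CPM in the intact and 68.6, 66.9, 68.8 and 80.3 CPM in the deleted libraries. Deleted library 4 stood apart from the other deleted libraries, towards the intact ones. The intact mean was 121 ± 5.85 CPM and the deleted mean 71.1 ± 6.16 CPM (log2 fold change -0.77 ± 0.06), a difference close in size to that of Srebf1.

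In the polyunsaturated branch, Fads2 and Elovl5 had the smallest differences of the 9 lower genes, and Fads1 differed about as much as Acaca. Fads2 (gene ID 56473, chr19:10062765-10101503), the desaturase that opens this branch, had 201, 203, 194 and 196 CPM in the intact and 166, 169, 180 and 162 CPM in the deleted libraries (log2 fold change -0.23 ± 0.04). Fads1 (gene ID 76267, chr19:10182877-10196874), the later desaturase, had 255, 253, 249 and 241 CPM in the intact and 185, 184, 193 and 188 CPM in the deleted libraries (log2 fold change -0.41 ± 0.03). Elovl5 (gene ID 68801, chr9:77917365-77984519), the elongase between them, had the narrowest gap of the 10, with 81.5, 86.8, 81.6 and 85.3 CPM in the intact and 72.2, 80.1, 77.9 and 72.5 CPM in the deleted libraries. Its highest deleted library lay just under its lowest intact library, and its log2 fold change of -0.15 ± 0.04 became -0.08 with library totals in place of scaled sizes. Acaca overlaps Tada2a, Srebf1 overlaps Rai1, and Acly, Elovl5, Elovl6, Fads1 and Scd2 overlap small RNA genes or gene models. These are overlaps of whole gene spans, introns included, and shared exons were not looked for. Without strand, reads in any exon common to both genes cannot be assigned to either gene.

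**Figure D2:**
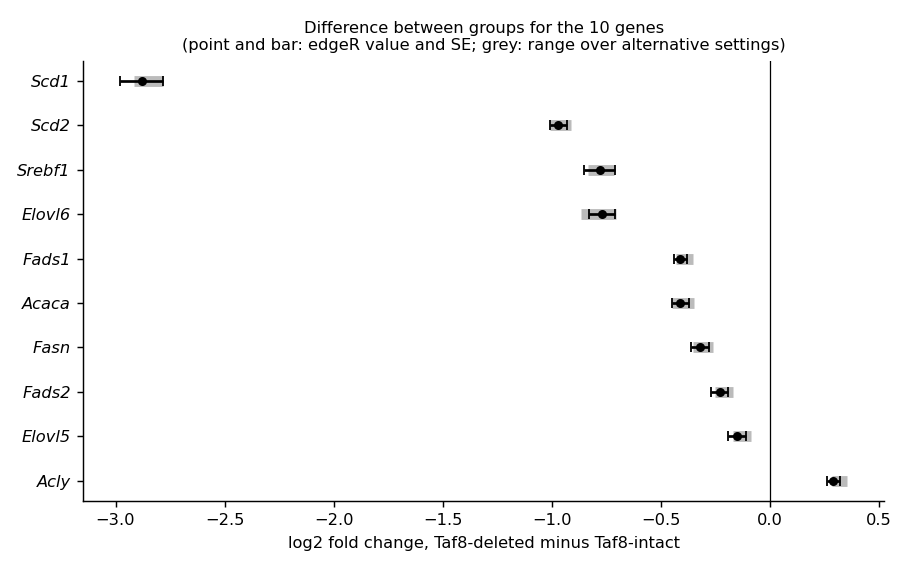
Log2 fold change of the 10 genes, Taf8-deleted minus Taf8-intact, as points with bars of 1 standard error, over grey bands that give the range over the alternative settings. Scd1 lies at -2.88, Scd2, Srebf1 and Elovl6 between -0.97 and -0.77, the other lower genes between -0.41 and -0.15, and Acly at 0.29. These values chose the set and carry no test.

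Divided by transcript length, the order of levels in intact cortex was Scd2 at 257, Acly at 159, Fads2 at 132, Fasn at 77.7, Fads1 at 72.1, Elovl5 at 30.1, Srebf1 at 24.1, Elovl6 at 20.4, Acaca at 10.4 and Scd1 at 6.54 CPM per kb. Among neighbours in this order only Fasn and Fads1 had overlapping libraries, and the lowest Srebf1 library stood at 21.2 against 21.1 CPM per kb in the highest Elovl6 library. In deleted cortex Acly came first at 195 CPM per kb and Scd2 next at 131, and the remaining genes kept their order down to Scd1 at 0.890 CPM per kb. There the libraries of Srebf1 and Elovl6 overlapped. The deposited length of Fads2 is 1508 bases, whereas its longest GENCODE transcript has 3150. With the longer length its level was 63.0 CPM per kb in intact and 53.7 in deleted cortex, below Fasn and Fads1. In deleted cortex it was then close to Fads1, at 54.2. If reads were counted only over the 1508 deposited bases, the longer length understates the level of Fads2.

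**Figure D3:**
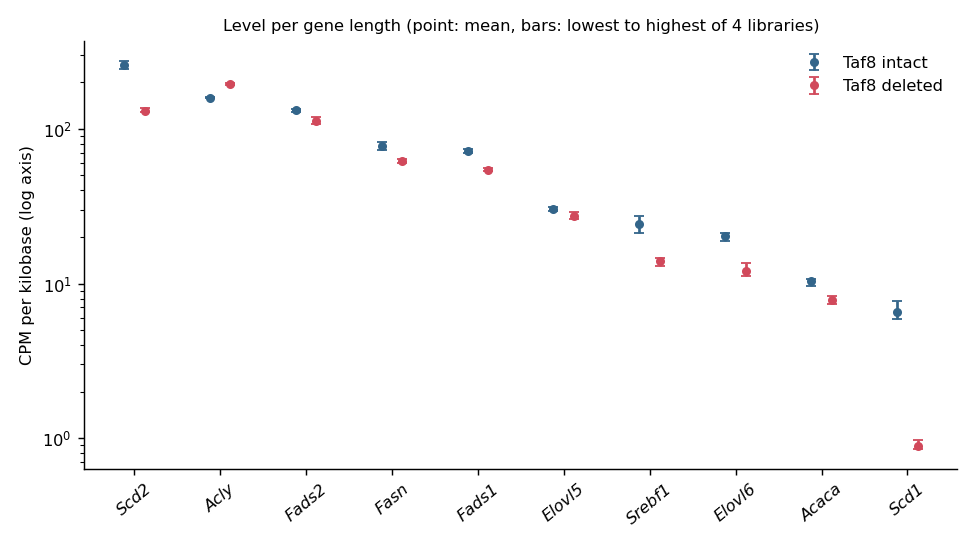
Level per transcript length, in CPM per kb on a log axis, for the 10 genes in intact and deleted cortex, with points at the mean and bars from the lowest to the highest of 4 libraries. Scd2 leads in intact cortex at 257 CPM per kb and Acly in deleted cortex at 195 CPM per kb, and Scd1 is lowest in both, at 6.54 and 0.890 CPM per kb.

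The genes whose log2 CPM followed Scd1 most closely over the 8 libraries were Fxr2, Babam2, Zfp113, Pum3 and Exosc10, with Pearson's r of 0.998, and all of these were lower in deleted cortex. Their log2 fold changes were -0.19, -1.02, -0.60, -0.40 and -0.50, so a high r did not go with a like size of difference. The libraries form separate groups, and 1806 of 11613 genes compared had an r of at least 0.95, so r mostly restates the difference between the groups. On deviations from the group means, r with Scd1 was 0.76 for Srebf1, 0.65 for Scd2 and 0.43 for Fasn. It was 0.39 for Fads1, 0.36 for Fads2, 0.18 for Elovl5 and 0.16 for Acaca, and -0.12 for Elovl6 and -0.11 for Acly. For Fxr2, Babam2, Zfp113, Pum3 and Exosc10, which were picked on their r, it was 0.75, 0.74, 0.69, 0.77 and 0.60. Some genes outside the pathway thus reached values of this size. The r they were picked on includes these deviations, so the pick favoured such values. How common they are over all genes was not computed. These are descriptions over 8 libraries that share their depth and scaling.

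The genes that border the Scd and Fads clusters, chosen after their values were seen, did not all go the way of the enzymes. Within 250 kb of Scd1, Sec31b (log2 fold change 1.26 ± 0.24, adjusted p = 0.000555) and Ndufb8 (0.37 ± 0.05, adjusted p = 1.72e-05) rose, and Hif1an fell (-0.15 ± 0.04, adjusted p = 0.004). Bloc1s2 and Wnt8b did not pass the test, with log2 fold changes of 0.10 and 0.30. Within 250 kb of Fads1, the related desaturase gene Fads3 fell (-0.46 ± 0.07, adjusted p = 8.92e-05), as did Tmem258 (-0.32 ± 0.04, adjusted p = 5.16e-05), and so did Fth1 (-0.14, adjusted p = 0.0225), Dagla (-0.26, adjusted p = 0.00195) and Syt7 (-0.35, adjusted p = 0.00134). Best1 rose from 0.102 to 0.684 CPM (2.72 ± 0.64, adjusted p = 0.00378), and Fen1 (0.07), Rab3il1 (0.13) and Myrf (0.17) did not pass the test.

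Outside the 10 genes, 9 lists of the surrounding lipid pathways were counted. Of their 135 genes, 132 were tested, 34 rose (25.8%) and 55 fell (41.7%). Their median log2 fold change was -0.06, beside 30.6% higher, 32.9% lower and a median of 0.0 over all genes. With library totals 43 of them rose and 45 fell, and with upper-quartile factors 43 and 46, so the balance of rises and falls within the lists depends on the scaling. The calls over all genes moved the same way, from 4919 higher and 5290 lower to 5892 and 4417 with library totals. With upper-quartile factors they were 5837 and 4480. Falls were then fewer than rises over all genes, but not in the lists. All calls below are from the quasi-likelihood test of edgeR, with p adjusted by Benjamini-Hochberg over all genes. Among 10 genes of precursor supply and carboxylation, 2 rose and 5 fell (median -0.19). Mlycd, the decarboxylase that breaks down malonyl-CoA, rose from 15.5 ± 0.807 to 23.4 ± 1.40 CPM (log2 fold change 0.59 ± 0.06, adjusted p = 3.10e-06). Thrsp, a lipogenic nuclear protein, fell from 1.78 ± 0.139 to 0.611 ± 0.116 CPM (-1.53 ± 0.17, adjusted p = 9.27e-06), and its relative Mid1ip1, which promotes acetyl-CoA carboxylase assembly, fell by 0.39 on the log2 scale (adjusted p = 3.05e-05). Idh1, a cytosolic source of NADPH, fell from 331 ± 11.3 to 257 ± 14.7 CPM (adjusted p = 1.23e-05).

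Of 17 other elongation and desaturation genes tested among 18, 4 rose and 7 fell (median -0.02). The number that rose was 1 without intact library 1 or deleted library 3, and 2 without library 2 of either group. Elovl2, which lengthens the long polyunsaturated fatty acids made by Fads1, had 96.0, 89.8, 93.2 and 92.0 CPM in the intact and 35.6, 37.3, 34.9 and 39.3 CPM in the deleted libraries. The groups were far apart, with a log2 fold change of -1.34 ± 0.04 (adjusted p = 5.37e-10), a bigger difference than that of Elovl5 or Elovl6. The enoyl reductase gene Tecr fell from 155 ± 13.1 to 119 ± 6.15 CPM (adjusted p = 0.000132). Hsd17b12, the ketoacyl reductase of the same elongation cycle, rose from 82.7 ± 3.47 to 99.8 ± 5.12 CPM (adjusted p = 0.000145).

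Of 12 genes of SREBP maturation, the escort, cleavage and degradation steps that act on SREBP proteins, 3 rose and 6 fell (median -0.05), and only 3 fell with library totals or upper-quartile scaling. Srebf2, the sterol-directed relative of Srebf1, fell from 422 ± 13.1 to 300.2 ± 8.87 CPM (log2 fold change -0.49 ± 0.03, adjusted p = 1.67e-07). Mbtps2, the protease that makes the second cleavage, fell by 0.39 on the log2 scale (adjusted p = 1.81e-05), whereas Erlin2 (0.33 ± 0.03, adjusted p = 3.34e-06) and Aup1 (0.38 ± 0.04, adjusted p = 3.97e-06), which act in degradation at the endoplasmic reticulum, rose. Among 17 lipogenic transcription factors and cofactors tested of 18, 3 rose and 7 fell (median -0.07). Nr1h2, which encodes LXR beta, a sterol-sensing receptor that activates Srebf1, fell from 61.2 ± 3.69 to 37.7 ± 3.17 CPM (-0.70 ± 0.06, adjusted p = 1.55e-06). Rxra, its partner receptor, rose (0.34 ± 0.04, adjusted p = 1.58e-05), and Nfyc (-0.44 ± 0.05, adjusted p = 1.32e-05), a subunit of the CCAAT-binding factor, and Usf2 (-0.30 ± 0.04, adjusted p = 2.48e-05), an E-box factor, fell.

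Of 6 LXR targets, 1 rose and 2 fell (median -0.09). Lpcat3, a phospholipid-remodelling enzyme, fell by 0.44 (adjusted p = 4.44e-05) and the sterol transporter gene Abcg1 by 0.32 on the log2 scale (adjusted p = 0.000158). The related transporter gene Abca1 rose (0.18 ± 0.07, adjusted p = 0.0480), a call lost without intact library 1, 2 or 4 or deleted library 1 or 3, when its log2 fold change was 0.13 to 0.18. Apoe had 24.1 ± 2.21 and 30.7 ± 6.57 CPM and missed the threshold (adjusted p = 0.0781), but passed without deleted library 4, with a log2 fold change of 0.49.

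Of 17 genes of sterol synthesis and uptake, 15 fell and 1 rose (median -0.47). Fdps (-1.11 ± 0.07, adjusted p = 7.03e-08) and Fdft1 (-0.97 ± 0.05, adjusted p = 3.15e-08), which join isoprenoid units on the way to squalene, fell by about as much as Scd2, and Msmo1 and Sqle fell by 0.81 and 0.67.

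On the side of fatty acid breakdown, 12 of 20 genes of beta-oxidation rose and 3 fell (median 0.34). Eci1, an isomerase for unsaturated acyl chains, rose from 14.0 ± 1.04 to 28.3 ± 2.59 CPM (log2 fold change 1.01 ± 0.07, adjusted p = 2.19e-07), and the dienoyl reductase gene Decr1 from 11.4 ± 1.35 to 21.6 ± 1.03 CPM (0.92 ± 0.08, adjusted p = 8.80e-07). Hadha, a subunit of the mitochondrial trifunctional protein, rose from 109 ± 3.04 to 150.2 ± 4.76 CPM (adjusted p = 3.43e-07), and the electron carrier gene Etfa rose by 0.58 ± 0.05 (adjusted p = 1.41e-06). The dehydrogenase gene Acadl fell (-0.24 ± 0.07, adjusted p = 0.0137), a call lost without intact library 2 (-0.18) or 4 (-0.20), without library 4 of both groups (-0.18), and with library totals (-0.17) or upper-quartile factors (-0.18). The 3 that fell became 0 without intact library 2 and 1 without deleted library 1.

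Of 15 genes of fatty acid uptake and activation, 2 rose and 4 fell (median 0.02), and 4 rose without intact library 1. Fabp7, the fatty acid binding protein of radial glia, fell from 414 ± 9.06 to 290 ± 26.4 CPM (adjusted p = 8.10e-06) while Fabp5 rose from 24.2 ± 1.07 to 32.4 ± 1.5 CPM (adjusted p = 1.20e-05). The acyl-CoA synthetase genes Acsl4 and Acsl6 fell by 0.37 and 0.38 (adjusted p = 4.09e-05 and 8.80e-05). Of 18 genes of glycerolipid synthesis and lipid droplets tested among 19, 6 rose and 6 fell (median 0.03). Dgat2, which makes triglyceride from diacylglycerol, had 6.09, 6.95, 7.32 and 5.86 CPM in the intact and 25.7, 26.6, 27.0 and 24.6 CPM in the deleted libraries. Every deleted library stood above every intact one, with a log2 fold change of 1.99 ± 0.07 (adjusted p = 1.51e-09), opposite in sign to that of Scd1. Gpam, the acyltransferase at the entry of the pathway, rose (0.31 ± 0.03, adjusted p = 4.72e-06), and Lpin1 (-0.61 ± 0.04, adjusted p = 7.91e-08) and the lipase gene Lipe (-0.63 ± 0.06, adjusted p = 2.01e-06) fell.

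**Figure D4:**
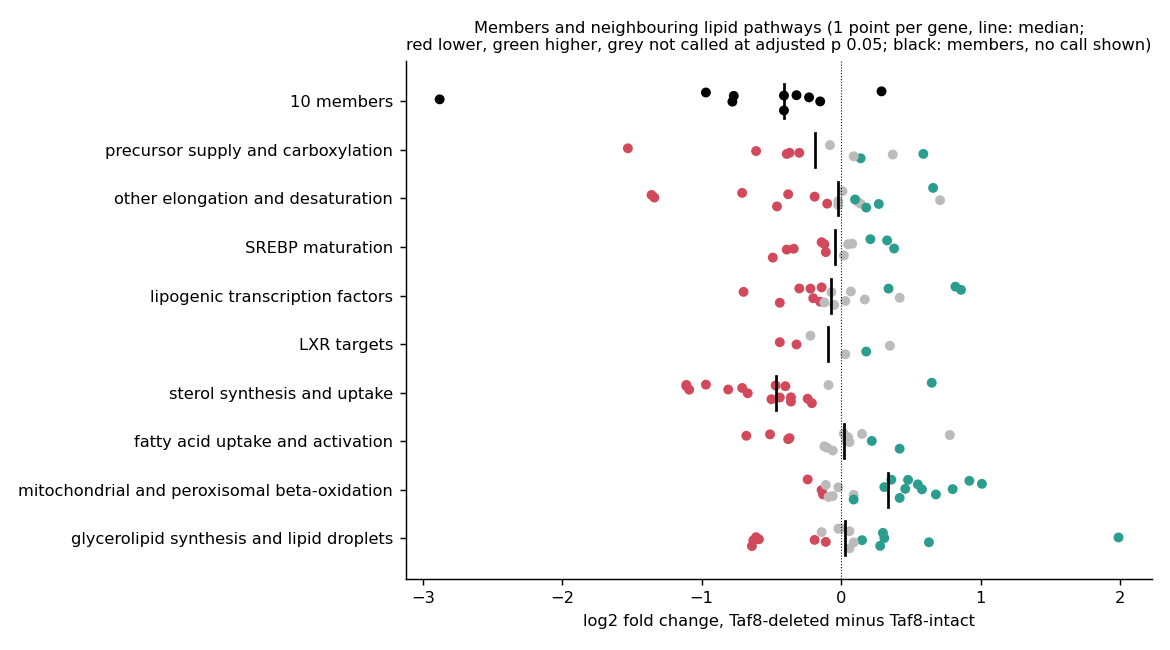
Log2 fold change (Taf8-deleted minus Taf8-intact) of each gene tested in the 9 pathway lists and of the 10 genes described, 1 point per gene and a line at each median, with red for genes called lower, green for higher, grey for not called and black for the 10 genes, which carry no call. Of the sterol genes 15 of 17 are red, and of the beta-oxidation genes 12 of 20 are green.

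Among the named genes of these lists, Aup1 overlaps Htra2, Mbtps2 overlaps Yy2, Nr1h3 overlaps Acp2, Lpcat3 overlaps Emg1, Fdft1 overlaps Ctsb and Lpin1 overlaps Ntsr2. These too are overlaps of whole gene spans. Reads in any exon that such a pair shares cannot be told apart without strand, and shared exons were not looked for. Mlycd, Fads3, Tecr, Srebf2, Nfyc, Fdps, Acsl6, Decr1, Acadl, Lipe and Gpam overlap small RNA genes or gene models.

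Markers of the cell types that a dissected cortex can hold moved beside these genes, and their part in the values above was not tested. Beside the counts of calls that follow, 30.6% of all genes tested were called higher and 32.9% lower. Neuron markers fell in 7 of 8 genes and rose in 0, with a summed level of 6156 to 6750 CPM in intact and 4545 to 4951 CPM in deleted libraries. Dcx fell from 2107 ± 111 to 1293 ± 104 CPM (adjusted p = 7.85e-07) and Map2 from 1301 ± 71.8 to 1039 ± 51.5 CPM (adjusted p = 5.39e-05), but Tubb3, at 1827 ± 70.5 and 1749 ± 58.8 CPM, did not pass the test. Of 7 radial glia markers 5 rose and 1 fell, with sums of 1648 to 1945 and 2675 to 2852 CPM. Nes rose from 682 ± 62.1 to 1227 ± 38.6 CPM (adjusted p = 2.42e-07) and Vim from 602 ± 40.2 to 909 ± 34.7 CPM (adjusted p = 4.65e-07), whereas Sox2 had 207 ± 20.7 and 229 ± 10.2 CPM and did not pass. The radial glia marker that fell was Slc1a3, from 145 ± 3.55 to 115 ± 6.65 CPM (adjusted p = 2.72e-05, edgeR). Fabp7, which is not in this marker list, also fell, as given above.

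Cells of the myelin lineage, which use much Scd2, were marked by 12 genes, of which 11 were tested, 7 fell and 1 rose, with sums of 129 to 133 CPM in intact and 107 to 124 CPM in deleted libraries. Mbp fell from 29.9 ± 0.915 to 25.5 ± 0.768 CPM (adjusted p = 0.000573) and Cnp from 14.3 ± 0.343 to 12.4 ± 0.719 CPM (adjusted p = 0.00778), and Gpr17, which overlaps Lims2 and is named after its values were seen, fell the most of the list, from 3.73 ± 1.08 to 0.656 ± 0.231 CPM (adjusted p = 7.62e-06). Olig2 had 31.4 ± 2.61 and 34.5 ± 1.94 CPM and did not pass. The gene that rose was Cspg4, from 11.3 ± 0.144 to 13.1 ± 1.59 CPM (adjusted p = 0.0406, edgeR). Of 6 astrocyte markers tested among 7, 4 fell and 1 rose, with sums of 392 to 410 and 311 to 341 CPM. Slc1a2 fell from 173 ± 11.0 to 133 ± 11.2 CPM (adjusted p = 0.000213) and Aldoc from 163 ± 5.05 to 143 ± 14.0 CPM (adjusted p = 0.0186), and Aldh1l1, also named after its values were seen, fell from 24.7 ± 1.86 to 5.86 ± 0.637 CPM (adjusted p = 2.43e-09). Gja1 did not pass the test, at 37.7 ± 2.06 and 43.4 ± 8.19 CPM. The astrocyte marker that rose was Gfap, at a low level, from 0.238 ± 0.0897 to 0.461 ± 0.0652 CPM (adjusted p = 0.0114, edgeR). Of the 5 cortex identity genes 3 fell and 1 rose, with sums of 1503 to 1583 and 1388 to 1439 CPM.

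All 7 endothelial markers were tested, 6 rose and 0 fell (143 to 151 and 163 to 202 CPM), with Cldn5 at 22.9 ± 0.580 and 32.6 ± 4.18 CPM (adjusted p = 0.000145). Of 8 markers of meninges, 7 were tested, 4 rose and 0 fell, with sums of 17.1 to 38.6 and 19.5 to 148 CPM, and Col3a1 stood at 17.2, 49.6, 62.2 and 8.25 CPM in the deleted libraries. Microglia markers rose in 1 and fell in 1 of 6 genes (35.2 to 39.2 and 34.4 to 42.2 CPM). Of the fat cell markers, 1 of 6 passed the filter and was not called, their sum was 0.325 to 0.462 CPM in intact and 0.363 to 0.497 CPM in deleted libraries, and Adipoq, Plin1 and Plin4 reached at most 18 counts in a library.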

How the data were processed

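Gene counts were deposited by the authors as whole numbers per gene and library, not normalised, with a gene length that the authors gave beside them. Per the submitters' processing notes, bcl2fastq 1.8.4, Subread 1.5.0, featureCounts and build mm10 were used, and the role of each is not given. Libraries were unstranded TruSeq libraries, per the labels' protocols. Symbols, positions and promoters came from RefSeq tables of GRCm38.p6, the assembly behind mm10, and Scd transcripts from GENCODE M21. A symbol was found for 25275 of 27179 identifiers.

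Counts were fitted with edgeR 4.0.16 in R 4.3.3, after filterByExpr, with TMM sizes and the quasi-likelihood test, over all 8 libraries and without covariates. Benjamini-Hochberg adjustment covered all 16074 genes tested, with a threshold of 0.05. The standard error (SE) was computed as the fold change over the root of F. The fit was checked on simulated counts. Likeness to Scd1 used log2 CPM with a prior count of 2, for genes with a mean of at least 2. Alternatives were other scalings, filters, a replicate block, each library left out, DESeq2 1.42.0 and limma 3.58.1 (voom), and, added after seeing the data, library 4 of both groups left out. P-values measure the spread between embryos, and counting errors do not cover PCR duplicates.

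The members and lists were chosen with earlier results of these data known. Named are all members, Taf8, Scd3, Scd4, the 5 genes most like Scd1, per pathway list up to 4 genes with the smallest p and the smallest-p gene of the opposite direction, and among the 3 highest genes of each marker list. Genes bordering the clusters, Nr1h3 and Mlxipl, and the markers Gpr17, Aldh1l1, Slc1a3, Cspg4 and Gfap, lie outside this rule. A few genes that it names are left out of the text.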

Additional observations from a re-analysis of the deposited data

Results flagged for a closer look

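In 4 of 102 sets of 4 libraries checked, 1 library lay apart from the other 3, its gap to the nearest as a share of the range, exceeding Dixon's critical value. Chance gives about 1 in 20. Elovl6 in deleted library 4 was the highest of its group at 80.3 CPM, against 66.9 to 68.8 CPM in the others. Mlycd in deleted library 4 was the lowest at 21.3 CPM, against 24.0 to 24.3 CPM. In intact library 3, Nfyc was the lowest at 30.1 CPM, against 31.7 to 32.1 CPM, and Rxra was the lowest at 40.9 CPM, against 45.0 to 45.4 CPM.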

How the results depend on the processing

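Over 17 alternatives, none reversed the direction of a member or of a pathway-list gene named by the rule. The number of genes called was 10209, with 9586 to 10127 when single libraries were left out and 9552 to 10346 over all. Embryos that share a replicate number did not deviate together (correlations of -0.229, 0.00519, -0.000469 and -0.455). So few correlations cannot exclude a pairing by these numbers. With the replicate block 9665 genes were called, and the number of other elongation and desaturation genes that rose went from 4 to 1. That number was 2 without a filter and 1 to 3 with single libraries left out. With library totals or upper-quartile factors, SREBP maturation genes that fell went from 6 to 3, beta-oxidation genes that fell from 3 to 0, LXR targets that rose from 1 to 2 and uptake genes that rose from 2 to 4. LXR targets that rose were also 2 with DESeq2 and without library 4 of both groups, and 0 to 2 with single libraries left out. Sterol genes that rose went from 1 to 0 with the CPM filter, with DESeq2 and without library 4 of both groups, and were 0 to 1 with single libraries left out (0 without intact library 2, 3 or 4 or deleted library 1, 2 or 4). Uptake genes that rose were 2 to 4 with single libraries left out, and beta-oxidation genes that fell were 0 to 3, and 1 without library 4 of both groups. The cause was not tested. Scd1 had a log2 fold change of -2.92 to -2.78 over all alternatives.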
